A study of Mus musculus with 4 samples.

Results

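The 10 genes described here encode chains of the receptors for IL-12, IL-23, IL-27, IL-18, IL-1, IL-33 and interferon-gamma. They were chosen by symbol among the 54752 genes of the deposited count tables, and all 10 were found. The counts come from mouse spleen CD4+ T cells on a C57BL/6 background, cultured toward the T follicular helper (Tfh) state, in 2 WT and 2 Mek1/2-tKO libraries. The Mek1/2-tKO mice carried Cd4-Cre and were fl/fl for Map2k1 and fl/fl for Map2k2, so that deletion of the floxed kinase genes was driven by the Cd4-Cre transgene, and the comparison asks how loss of MEK1/2 in T cells alters their RNA. Cells of both genotypes were isolated as naïve CD4+ T cells, stimulated with antibodies against CD3 and CD28, and given IL-6 with antibodies that block IL-2, interferon-gamma, IL-4 and TGF-β. The viable cells were sorted again on day 3. WT mice are called littermate controls in the study's account of T-cell development. The ages of the mice behind these libraries and the Cre status of the WT mice are not given in the sources used here, nor whether the libraries of a genotype came from separate animals, so p-values measure the spread between these libraries, which may be technical.

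IL-12 and IL-23 share the chain IL-12Rβ1 (Il12rb1), which pairs with IL-12Rβ2 (Il12rb2) or IL-23R (Il23r) and signals through JAK2 and TYK2, with STAT4 the main messenger of IL-12 in T helper 1 cells. IL-27Rα (Il27ra) pairs with gp130 (Il6st). The IL-1 family receptors IL-18Rα (Il18r1), IL-1R1 (Il1r1) and ST2 (Il1rl1, the IL-33 receptor) bind their cytokine and then recruit an accessory chain, IL-18Rβ (Il18rap) for IL-18 and IL-1RAP (Il1rap) for IL-1 and IL-33, and signal through MyD88. Interferon-gamma binds IFNGR1 (Ifngr1), and IFNGR2 (Ifngr2) completes a receptor that signals through JAK1 and JAK2.

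The libraries held 16330802 to 18931090 counts. Map2k1 lay at 182 and 187 normalized counts per 1000000 (CPM) in WT and at 98.0 and 105 in Mek1/2-tKO, a fall of 0.86 on the log2 scale (edgeR's quasi-likelihood test, adjusted p = 1.29e-06). Map2k2 lay at 155 and 165 CPM in WT and at 172 and 182 in Mek1/2-tKO (log2 fold change 0.15, adjusted p = 0.126). These counts cover every exon of a gene and do not test the loss of a floxed exon, and Map2k2 counts give no sign of the deletion, so Mek1/2-tKO below means the libraries so labelled. Cd4, the co-receptor that defines the labelled cell type, stood at 297 and 289 CPM in WT and at 18.8 and 25.1 CPM in Mek1/2-tKO. It fell by 3.73 on the log2 scale (adjusted p = 2.43e-11). Of the CD3 chains of the T-cell receptor complex, Cd3e fell by 1.06 (adjusted p = 7.20e-07), but Cd3d and Cd3g did not fall. Their log2 fold changes were 0.20 and 0.24 (adjusted p = 0.0945 and 0.0254). Summed CPM of 8 B-lineage markers was 572 and 574 in WT and 3287 and 3206 in Mek1/2-tKO, so both Mek1/2-tKO libraries depart from the labelled cell type, and no library of that genotype without this feature was left to compare. In bulk RNA, fewer cells of a type and less RNA per cell cannot be told apart.

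In normalized counts, the IL-12 receptor chains were lower in Mek1/2-tKO, and both IL-18 receptor chains and the binding chains for IL-1 and IL-33 were higher. Relative to Cd4 counts, given further on, the IL-12 receptor chains were higher. Cd4 itself fell further than these chains, and any gene that fell less than Cd4 is higher on that scale. Of the 10 genes, 9 had enough counts to be tested. Il18r1, Il18rap, Il1r1, Il1rl1 and Ifngr1, 5 genes in all, were called higher, which takes a fold change of 1.5 or more with an adjusted p under 0.05, beside 19.3% of the 14330 genes tested. Il12rb1 and Il12rb2, 2 genes in all, were called lower, beside 16.4% of all genes tested. Il27ra and Ifngr2 were not called, and Il23r was not tested. The median log2 fold change was 0.84 over the 9 receptor genes and 0.02 over all genes tested.

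**Figure D1:**
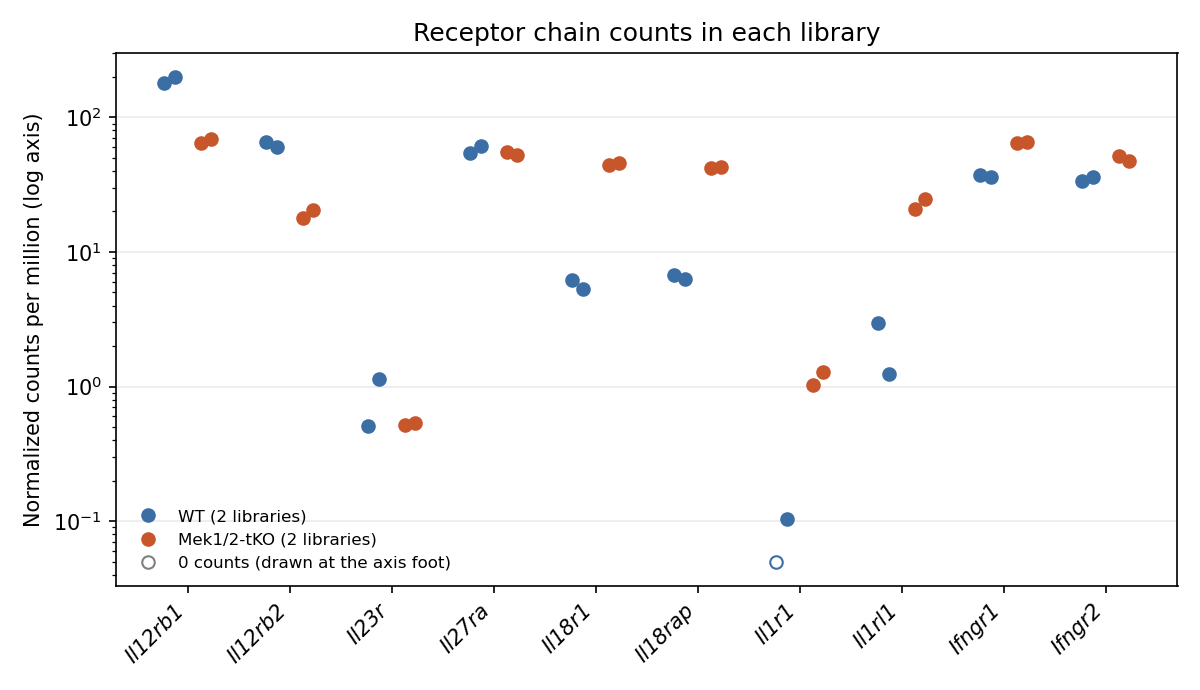
CPM (log axis) of the 10 receptor genes in each of the 4 libraries, WT in blue and Mek1/2-tKO in orange, 1 point per library. The genotypes lie apart for Il12rb1 at 179 and 199 against 64.5 and 69.1 and for Il18r1 at 6.16 and 5.29 against 44.2 and 45.7, and they overlap for Il23r and Il27ra.

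Il12rb1 (chr8:70808449-70821424, plus strand, GRCm38) had the highest level per exon kilobase of the receptor genes in WT cells. Its level was 179 CPM in WT replicate 1 and 199 CPM in WT replicate 2, against 64.5 and 69.1 CPM in the Mek1/2-tKO libraries. Both Mek1/2-tKO libraries were below both WT libraries, and the mean went from 189 ± 14.3 (SD, n = 2) to 66.8 ± 3.25 CPM (SD, n = 2). Il12rb1 fell by 1.50 on the log2 scale (SE 0.09, 95% confidence interval -1.69 to -1.30, adjusted p = 1.44e-08).

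Il12rb2 (chr6:67291318-67376188, minus strand), the chain that makes a T cell responsive to IL-12, was also lower. The WT libraries had 65.3 and 60.0 CPM and the Mek1/2-tKO libraries 17.9 and 20.4 CPM, with no overlap. This is a fall of 1.71 on the log2 scale (SE 0.12, 95% confidence interval -1.96 to -1.45, adjusted p = 6.33e-08), or 3.27-fold. Exons of Serbp1, an abundant gene on the opposite strand, cover 40.0% of the Il12rb2 exon bases. Among 491 genes whose exon bases all lie under exons of the other strand, 0 had a count in any library, so reads in such shared stretches were assigned to neither gene and the Il12rb2 counts rest on the other 2275 exon bases. Serbp1 itself changed little, with a log2 fold change of -0.07 (SE 0.07, adjusted p = 0.432).

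The sequence before the start of Il12rb2 is shown because this gene was called lower and because its window of 300 bases around the start site holds a match to the STAT motif TTCNNNGAA. The stretch below is RefSeq's, GRCm38.p6, chr6:67376189-67376438 read on the minus strand, 250 bases that end just before the start site, with the match in capitals.

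Il12rb2: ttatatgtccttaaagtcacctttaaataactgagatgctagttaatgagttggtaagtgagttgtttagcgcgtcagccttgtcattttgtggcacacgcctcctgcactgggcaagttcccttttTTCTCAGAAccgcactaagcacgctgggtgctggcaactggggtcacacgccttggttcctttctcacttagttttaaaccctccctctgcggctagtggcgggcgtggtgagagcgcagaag

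The match starts 123 bases before the start site. Of the 32851 windows of 300 bases in the RefSeq promoter table, 8.30% hold the same motif.

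Il23r (chr6:67422932-67491855, minus strand) lies 46.7 kb from Il12rb2 and encodes the specific chain of the IL-23 receptor. It had 10 and 22 counts in WT and 8 and 10 counts in Mek1/2-tKO, too few to pass the filter on low counts. The groups overlapped, and the ratio of pooled counts, Mek1/2-tKO over WT, was 0.636 with an exact 95% interval of 0.336 to 1.17 that covers counting error only. A change in Il23r was not detectable at this depth.

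Il27ra (chr8:84030294-84042589, minus strand) stood at 54.7 and 61.5 CPM in WT and at 55.5 and 52.8 CPM in Mek1/2-tKO. Its libraries overlapped between genotypes, and the log2 fold change was -0.10 (SE 0.10, 95% confidence interval -0.33 to 0.12, adjusted p = 0.432). The interval excludes a fall of the size measured for either IL-12 receptor chain.

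IL-18Rα (Il18r1, chr1:40465552-40500854, plus strand), the chain that binds IL-18, was higher in Mek1/2-tKO. It had 6.16 and 5.29 CPM in the WT libraries and 44.2 and 45.7 CPM in the Mek1/2-tKO libraries. Every Mek1/2-tKO library exceeded every WT library, with means of 5.72 ± 0.61 and 44.9 ± 1.07 CPM (SD, n = 2 each). The log2 fold change was 2.97 (SE 0.15, 95% confidence interval 2.65 to 3.29, adjusted p = 2.24e-09), a 7.84-fold rise.

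Its partner Il18rap (chr1:40515362-40551705, plus strand), which is needed for signalling, moved alongside. The values were 6.72 and 6.33 CPM in WT against 42.4 and 43.0 CPM in Mek1/2-tKO, again without overlap. The log2 fold change was 2.71 (SE 0.14, 95% confidence interval 2.40 to 3.02, adjusted p = 3.81e-09), or 6.54-fold. Per exon kilobase, Il18r1 stood to Il18rap at 1.28 and 1.17 in the WT libraries and at 1.46 and 1.49 in the Mek1/2-tKO libraries, so the ratio of these chains moved far less than either level.

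Il1rl1 (chr1:40429570-40465415, plus strand), which encodes ST2 and marks T helper 2 cells, a subset of regulatory T cells, type 2 innate lymphoid cells (ILC2) and mast cells, had 2.98 and 1.24 CPM in WT and 21.0 and 24.6 CPM in Mek1/2-tKO. The WT replicates differed from each other more than those of the IL-18 receptor genes, yet both lay far below the Mek1/2-tKO libraries. The log2 fold change was 3.43 (SE 0.28, 95% confidence interval 2.82 to 4.04, adjusted p = 3.15e-07). Leaving out WT replicate 1 gave 4.19, and leaving out WT replicate 2 gave 2.93.

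Il1r1 (chr1:40225080-40317257, plus strand), the signalling receptor for IL-1α and IL-1β, had the lowest measured level of the 10 per exon kilobase in both genotypes. In Mek1/2-tKO it was close to Il23r, at 0.18 against 0.21 CPM per kilobase. It had 0 and 2 counts in WT and 16 and 24 counts in Mek1/2-tKO, and passed the filter on low counts only through the latter. A count of 0 allows up to 3 counts in a library, and the ratio of pooled counts, Mek1/2-tKO over WT, was 22.6 with an exact 95% interval of 5.87 to 193 for counting error only. The call (adjusted p = 0.0022) was therefore of a gene that was near the limit of detection in WT, and the size of its change is known only within that wide range. The fitted log2 fold change of 4.32 became 3.39 when WT replicate 1 was left out and 7.38 when WT replicate 2 was, and at least 10 counts in every library would leave the gene untested.

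**Figure D2:**
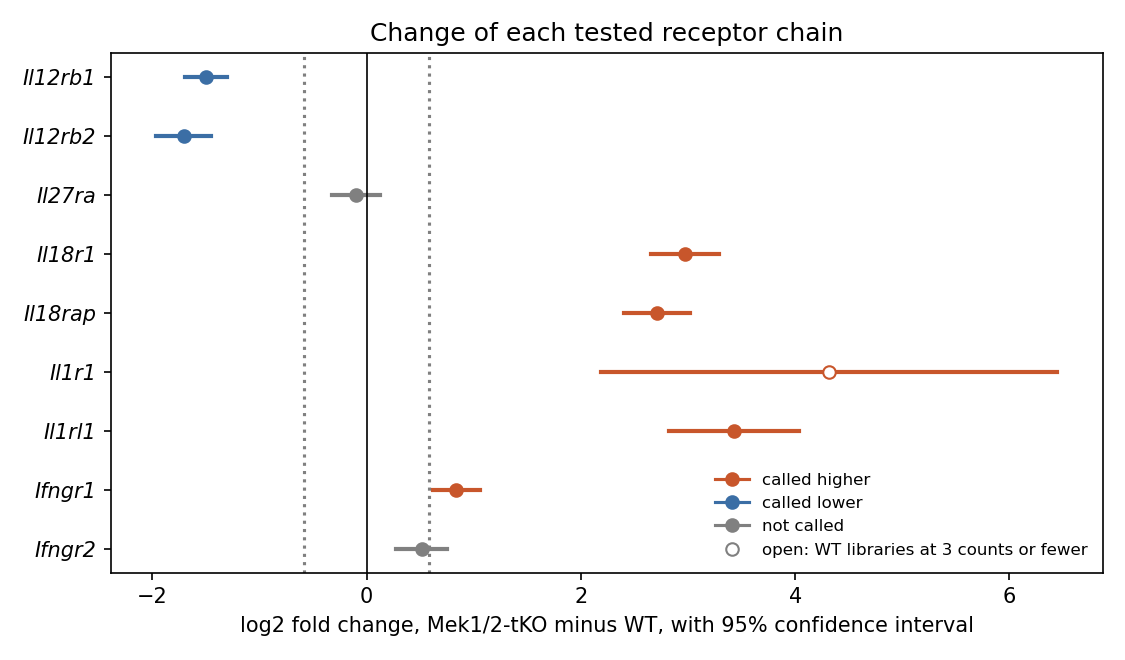
Log2 fold change, Mek1/2-tKO minus WT, of the 9 tested receptor genes with 95% confidence intervals from edgeR, and dotted lines at a fold change of 1.5 in either direction. The intervals of Il12rb1 and Il12rb2 lie below 0, those of Il18r1 and Il18rap lie above 2, and Il1r1 (open symbol, WT libraries at 3 counts or fewer) has the widest interval.

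The interferon-gamma receptor chains had smaller fold changes. Ifngr1 (chr10:19591949-19610229, plus strand), the ligand-binding chain, had 37.2 and 36.0 CPM in WT and 64.9 and 65.8 CPM in Mek1/2-tKO. The replicates lay close together, and the log2 fold change was 0.84 (SE 0.10, 95% confidence interval 0.62 to 1.06, adjusted p = 1.26e-05), a 1.78-fold rise. Ifngr2 (chr16:91547072-91565623, plus strand), the chain that often limits interferon-gamma responses in T cells, had 33.6 and 36.0 CPM in WT and 51.7 and 47.8 CPM in Mek1/2-tKO. These groups did not overlap either. The log2 fold change of Ifngr2 was 0.51 (SE 0.11, 95% confidence interval 0.28 to 0.75, adjusted p = 0.00138), which passed the test but stayed at 1.43-fold, under the threshold of 1.5.

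The order of the receptor genes by level differed between genotypes. In CPM per exon kilobase, Il12rb1 led in WT at 46.0 ± 3.49 (SD, n = 2), followed by Il27ra at 16.6 ± 1.39 and Il12rb2 at 16.5 ± 0.99, whose libraries overlapped. Ifngr1 (12.9) and Ifngr2 (9.24) came next, and then, far lower, Il18r1 (1.19) and Il18rap (0.97). Il23r (0.33) and Il1rl1 (0.31) overlapped, and Il1r1 was last at 0.0082. In Mek1/2-tKO, Ifngr1 led at 23.0 ± 0.23 (SD, n = 2), above Il12rb1 at 16.3 ± 0.79 and Il27ra at 15.5 ± 0.56, which overlapped. Ifngr2 (13.2), Il18r1 (9.33), Il18rap (6.32), Il12rb2 (5.05), Il1rl1 (3.31), Il23r (0.21) and Il1r1 (0.18) followed without overlap between neighbours. The order of Il23r and Il1r1 in Mek1/2-tKO rests on 8 and 10 against 16 and 24 counts, too few to settle it.

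The level of Il18r1 relative to Il12rb2, per exon kilobase, was 0.074 and 0.069 in WT and 1.94 and 1.76 in Mek1/2-tKO. Counting only the Il12rb2 bases free of Serbp1 exons, which raises Il12rb2 to 27.5 ± 1.65 CPM per kilobase in WT and to 8.41 ± 0.78 in Mek1/2-tKO (SD, n = 2), the ratio was 0.045 and 0.042 in WT and 1.17 and 1.06 in Mek1/2-tKO. On that scale Il12rb2 stood above Il27ra in WT and between Il18r1 and Il18rap in Mek1/2-tKO. Ifngr1 stood to Ifngr2 at 1.47 and 1.32 in WT and at 1.66 and 1.82 in Mek1/2-tKO.

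Il1r1, Il1rl1, Il18r1 and Il18rap lie in 1 cluster on chromosome 1, in the order Il1r2, Il1r1, Il1rl2, Il1rl1, Il18r1, Il18rap, all on the plus strand. Il1rl1 and Il18r1 are separated by 136 bases, and Il18r1 and Il18rap by 14.5 kb. Of these 6 genes, 4 were called higher and 0 lower, beside 19.3% and 16.4% of all genes tested. Their median log2 fold change was 2.84, against 0.02 over all genes tested. The 4 called genes are receptor genes already counted above, and Il1r1 among them passed the filter on low counts only through Mek1/2-tKO. The other two members of the cluster did not pass the test. Il1r2, the decoy receptor that binds IL-1 without signalling, had 2.31 and 2.54 CPM in WT and 2.97 and 3.46 CPM in Mek1/2-tKO (log2 fold change 0.41, adjusted p = 0.344). Il1rl2, the IL-36 receptor, had 4.16 and 4.25 CPM in WT and 4.07 and 3.67 CPM in Mek1/2-tKO (log2 fold change -0.12, adjusted p = 0.746). Il1rl2, which was not called, lies between Il1r1 and Il1rl1, and the last 3 genes of the order, Il1rl1, Il18r1 and Il18rap, were all called higher.

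**Figure D3:**
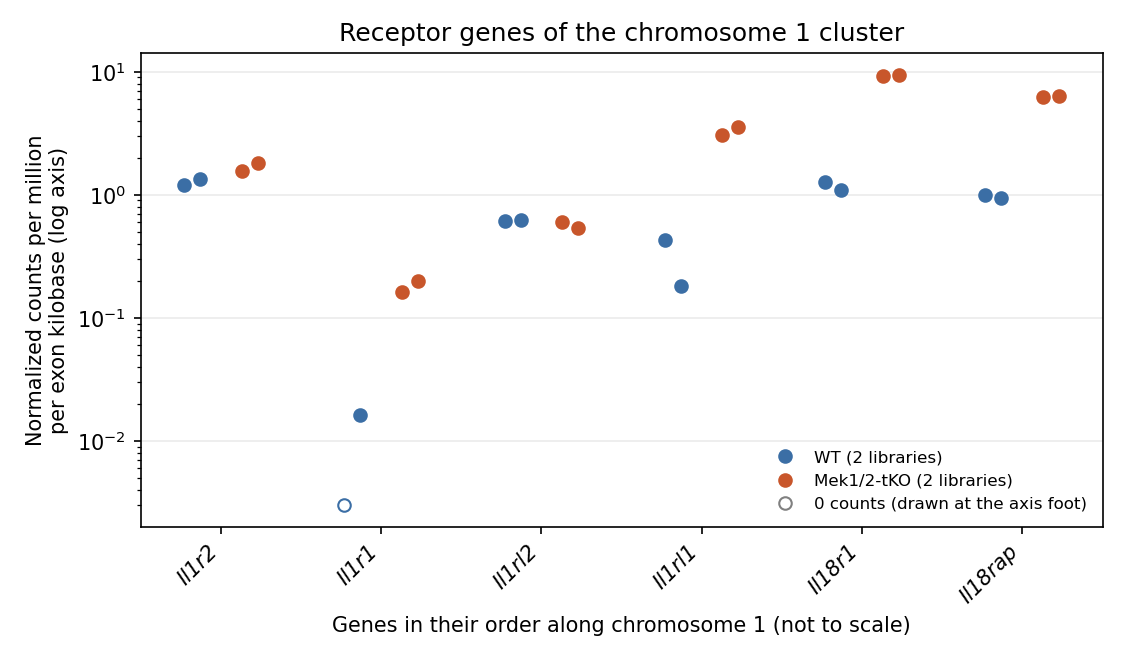
CPM per exon kilobase (log axis) of the 6 receptor genes on chromosome 1 in their order, 1 point per library, WT in blue and Mek1/2-tKO in orange. Il18r1 and Il18rap have WT means of 1.19 and 0.97 and Mek1/2-tKO means of 9.33 and 6.32, while the points of Il1rl2 lie at nearly the same height in both genotypes.

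The sequences before the start sites of Il1rl1, Il18r1 and Il18rap are shown because these neighbours were called in the same direction. They are RefSeq's, GRCm38.p6, plus strand, and end just before the start site: chr1:40429320-40429569 for Il1rl1, chr1:40465416-40465551 for Il18r1, which is the whole stretch between the end of Il1rl1 and the start of Il18r1, and chr1:40515112-40515361 for Il18rap.

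Il1rl1: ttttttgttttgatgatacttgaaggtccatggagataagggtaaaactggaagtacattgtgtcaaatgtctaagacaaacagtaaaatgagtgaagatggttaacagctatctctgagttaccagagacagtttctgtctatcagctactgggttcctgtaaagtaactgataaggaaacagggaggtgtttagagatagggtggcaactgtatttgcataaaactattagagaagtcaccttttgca

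Il18r1: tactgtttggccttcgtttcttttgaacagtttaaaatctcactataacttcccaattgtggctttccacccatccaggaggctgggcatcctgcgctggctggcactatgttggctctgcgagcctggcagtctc

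Il18rap: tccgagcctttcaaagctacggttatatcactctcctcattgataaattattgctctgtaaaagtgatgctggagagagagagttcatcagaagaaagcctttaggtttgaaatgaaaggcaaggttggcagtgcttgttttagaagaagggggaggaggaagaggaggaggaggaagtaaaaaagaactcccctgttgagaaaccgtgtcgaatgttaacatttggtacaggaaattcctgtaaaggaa

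RefSeq windows of 300 bases (250 before the start site and 50 after it) were found for 8 of the 10 genes, 12 windows in all. They were searched on both strands for the AP-1 motif TGANTCA, the STAT motif TTCNNNGAA, the IRF motif GAAANNGAA, the T-box motif GGTGTGA and the ETS motif CCGGAAGT, which 7.81%, 8.30%, 8.56%, 3.98% and 3.89% of all windows in the table hold. The windows of Il1r1, Il1rl1, Il18rap, Il23r, Ifngr1 and Ifngr2 held none of these letters. Beside the match in Il12rb2, 1 of the 3 windows of Il18r1, at a start site inside the gene, held 2 STAT matches, and its other 2 windows held none of the 5 motifs. The stretches printed above for the chromosome 1 genes therefore carry no capitals.

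Markers of other lymphocytes moved with the IL-18 receptor genes. Of all genes tested, 19.3% were called higher. All 8 natural killer (NK) cell markers were called higher, with a summed level of 120 and 123 CPM in WT and 802 and 727 CPM in Mek1/2-tKO. Most of that sum in every library was Nkg7, a granule protein of cytotoxic cells, so the sum does not measure NK cells alone. Nkg7 had 62.8 and 65.1 CPM in WT and 436 and 405 CPM in Mek1/2-tKO, a rise of 2.72 on the log2 scale (adjusted p = 1.46e-11). All 5 gamma-delta T-cell markers were called higher, from 6.98 and 4.36 to 184 and 165 summed CPM, and Trdc, the constant segment of the delta chain, rose by 5.12 (adjusted p = 3.89e-11). The gamma-delta marker Sox13 had 2 and 4 counts in WT and 24 and 24 in Mek1/2-tKO. The NK marker Klra8 had 4 and 5 against 129 and 85. Both passed the filter on low counts only through the Mek1/2-tKO libraries. Cd8a and Cd8b1, the CD8 markers, were both called higher, at 67.4 and 59.3 against 238 and 214 summed CPM. NK cells and many gamma-delta and CD8 T cells are known to carry the IL-18 receptor, and the part of these cells in the values of Il18r1 and Il18rap was not tested.

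T-cell identity genes went the other way, with 6 of 10 called lower and 0 higher, beside 16.4% and 19.3% of all genes tested. The summed levels of these 10 were 2599 and 2672 CPM in WT and 1512 and 1435 CPM in Mek1/2-tKO. Cd3d and Cd3g, which all T cells use, were not called, though Cd3g rose by 0.24 on the log2 scale (adjusted p = 0.0254), under the fold threshold. Per 1000 counts of Cd3d, Cd3e and Cd3g together, Il12rb1 had 458 and 498 counts in WT and 153 and 186 in Mek1/2-tKO, and Il12rb2 had 167 and 150 against 42.4 and 55.0. On the same scale Il18r1 had 15.8 and 13.2 against 105 and 123, and Il18rap had 17.2 and 15.8 against 101 and 116. Ifngr1 stood at 95.3 and 90.3 against 154 and 177, and Il27ra at 140 and 154 against 132 and 142. The summed Cd3d, Cd3e and Cd3g level itself was 390 and 399 CPM in WT and 422 and 371 CPM in Mek1/2-tKO, so this scale differs little from CPM and does not test the direction of a change. Per count of Cd4, a scale added after the data were seen, the IL-12 receptor chains turn. Cd4 itself fell by 3.73 on the log2 scale, so any gene that fell less is higher per Cd4 count. This scale therefore does not test the direction of a change either. Il27ra, which was not called, had 0.184 and 0.213 counts per Cd4 count in WT and 2.96 and 2.10 in Mek1/2-tKO. Il12rb1 had 0.602 and 0.688 counts per Cd4 count in WT and 3.43 and 2.75 in Mek1/2-tKO, and Il12rb2 had 0.220 and 0.207 against 0.952 and 0.811. Il18r1 had 0.021 and 0.018 against 2.35 and 1.82. The counts do not say which cells carried the receptor RNA.

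Some mast-cell and ILC2 markers moved with Il1rl1, but Il5 and Mcpt4 did not. Of 8 such genes 5 were called higher, beside 19.3% of all genes tested, and 3 were not tested. Some that were tested, such as Cpa3 and Ms4a2, passed the filter on low counts only through the Mek1/2-tKO libraries. Il5, an ILC2 cytokine that was not tested, had 0 and 8 counts in WT and 0 in both Mek1/2-tKO libraries. The summed level of the list was 8.57 and 10.6 CPM in WT and 30.9 and 39.1 CPM in Mek1/2-tKO. Most of that sum in every library was Il13. It had 7.70 and 8.97 CPM in WT and 17.1 and 24.9 CPM in Mek1/2-tKO (log2 fold change 1.33, adjusted p = 7.90e-05). Kit, the stem cell factor receptor, had 7 and 10 counts in WT and 86 and 90 in Mek1/2-tKO, and Cpa3, a mast-cell protease, had 6 and 0 counts against 50 and 85. Mcpt4, a protease of connective tissue mast cells, was at 0 in every library, and Ms4a2, a chain of the high-affinity IgE receptor, was at 0 in both WT libraries and at 10 and 18 counts in Mek1/2-tKO. Gata3, a factor of T helper 2 cells and ILC2 that is known to drive Il1rl1, fell by 2.10 on the log2 scale (adjusted p = 7.22e-08) while Il1rl1 was higher. The part of mast cells, ILC2 or T helper 2 cells in the Il1rl1 values was not tested.

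The cytokines that these receptors bind were mostly higher as well. Of 10 ligand genes, 8 were called higher and 0 lower, beside 19.3% and 16.4% of all genes tested. Of the rest, 1 was not called and 1 was not tested. Il12b had 4 and 10 counts in WT and 59 and 52 in Mek1/2-tKO. It and others, such as Il27 and Il18, passed the filter on low counts only through the Mek1/2-tKO libraries. The median log2 fold change of the tested ligands was 2.06. Ifng had 127 and 121 CPM in WT and 2054 and 1773 CPM in Mek1/2-tKO, a log2 fold change of 3.95 (SE 0.10, adjusted p = 1.80e-12), with 25.9% of its exon bases under exons of another gene on the same strand. Il1b, the ligand of Il1r1 made mainly by myeloid cells, went from 2.82 and 2.59 to 15.6 and 15.3 CPM (log2 fold change 2.51, adjusted p = 5.16e-07). Il12a, the p35 chain of IL-12, went from 2.10 and 2.18 to 7.43 and 5.59 CPM (1.60, adjusted p = 0.000551), and Il1a from 1.85 and 0.93 to 5.62 and 5.33 CPM (1.97, adjusted p = 0.000552). Ebi3, a chain of IL-27, was not called, and Il33 had 0 counts in both WT libraries and in Mek1/2-tKO replicate 1 and 4 counts in Mek1/2-tKO replicate 2.

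These ligands are made by antigen-presenting, cytotoxic and stromal cells as well as by T cells. All 8 B-lineage markers were called higher, beside 19.3% of all genes tested. Cd79a, a chain of the B-cell receptor, rose by 3.43 on the log2 scale (adjusted p = 1.50e-12). Of 6 myeloid markers 3 were called higher and 3 were not tested, among them Fcgr1 with 4 and 4 counts in WT and 4 and 2 in Mek1/2-tKO. Lyz2, called higher, had 8 and 12 counts in WT and 158 and 117 in Mek1/2-tKO. It passed the filter on low counts only through Mek1/2-tKO. The summed myeloid level was 1.44 and 1.76 CPM in WT and 20.2 and 13.3 CPM in Mek1/2-tKO, and Adgre1, the macrophage marker F4/80, which passed the filter only through Mek1/2-tKO, had 0 counts in both WT libraries and 66 and 83 in Mek1/2-tKO. What these cells add to the ligand or interferon-gamma receptor values was not tested.

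Of the 7 partner, decoy and soluble chains, all tested, 0 were called higher and 2 lower, beside 19.3% and 16.4% of all genes tested, and the median log2 fold change was -0.12. Sigirr, an inhibitory member of the IL-1 receptor family, fell by 1.02 on the log2 scale (adjusted p = 4.67e-07), from 132 and 141 to 66.1 and 68.1 CPM. Il6st, the gp130 partner of Il27ra, had 19.4 and 19.3 CPM in WT and 9.56 and 14.0 CPM in Mek1/2-tKO, a fall of 0.71 (adjusted p = 0.00539) that was not called without Mek1/2-tKO replicate 1. Il1rap, the partner of Il1r1 and Il1rl1, had 9.19 and 9.23 CPM in WT and 7.04 and 6.07 CPM in Mek1/2-tKO (log2 fold change -0.49, adjusted p = 0.0647).

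Downstream of these receptors, 0 of the 5 JAK-STAT genes reported here were called higher and 2 lower. Of all genes tested, 19.3% were called higher and 16.4% lower. The median log2 fold change of these 5 genes was -0.25. Jak2, the kinase bound to IL-12Rβ2 and to IFNGR2, went from 296 and 289 CPM to 98.9 and 101 CPM, a fall of 1.54 on the log2 scale (SE 0.08, adjusted p = 2.07e-09). Stat3, used by IL-23 and IL-27, fell by 0.68 (adjusted p = 5.02e-06). Stat4, the messenger of IL-12, had 84.0 and 82.9 CPM in WT and 72.1 and 68.0 CPM in Mek1/2-tKO and was not called at the fold threshold (log2 fold change -0.25, adjusted p = 0.0317).

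In the MyD88 arm used by the IL-1, IL-18 and IL-33 receptors, 1 of 10 genes was called higher and 1 lower, no larger a share than the 19.3% and 16.4% of all genes tested. The median log2 fold change was -0.29. Traf6, the ubiquitin ligase of the arm, fell by 0.84 (adjusted p = 1.09e-05), and Irak3, an inhibitor of it, rose by 0.82 (adjusted p = 0.0217), a call lost without WT replicate 2, without Mek1/2-tKO replicate 1 and in DESeq2. Of 4 feedback genes, 1 was called higher and 0 lower, beside 19.3% and 16.4% of all genes tested. Socs1, an inhibitor of JAK kinases that interferon-gamma induces, rose by 1.34 (adjusted p = 8.84e-09), and the phosphatase gene Ptpn2 had a log2 fold change of -0.11 (adjusted p = 0.299).

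Genes that interferon-gamma is known to induce were mostly higher. Of 8, 6 were called higher and 0 lower, beside 19.3% and 16.4% of all genes tested. The median log2 fold change of the 8 was 1.11. Irf1 went from 233 and 232 to 465 and 460 CPM (log2 fold change 0.99, adjusted p = 8.62e-08), and Ciita, the switch for MHC class II genes, which B cells use without interferon-gamma, from 36.3 and 42.4 to 130 and 161 CPM (1.89, adjusted p = 2.09e-08). Irgm1 and Gbp3, GTPases of cell-autonomous defence, had log2 fold changes of 1.19 and 1.15 (adjusted p = 7.96e-08 and 3.84e-07), whereas Gbp2 and Igtp, members of the same GTPase families, were not called. Antibodies against interferon-gamma were present in the culture of both genotypes.

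Of 9 transcription factors of T-cell lineages, 3 were called higher and 2 lower, beside 19.3% and 16.4% of all genes tested. The median log2 fold change was -0.23. Tbx21, which encodes T-bet and is known to maintain Il12rb2 and Il18r1, had 134 and 136 CPM in WT and 107 and 122 CPM in Mek1/2-tKO (log2 fold change -0.23, adjusted p = 0.0378, under the fold threshold). Eomes, the related factor of cytotoxic cells, rose by 1.73 (adjusted p = 1.71e-07), from 21.8 and 16.6 to 65.6 and 61.7 CPM. Runx3, which acts with T-bet, fell by 1.16 (adjusted p = 5.66e-07), and Bcl6, the factor that defines Tfh cells, rose by 1.85 (adjusted p = 3.24e-06). B-lineage markers were higher in the same libraries, and whether T or B cells carried the Bcl6 RNA was not tested.

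**Figure D4:**
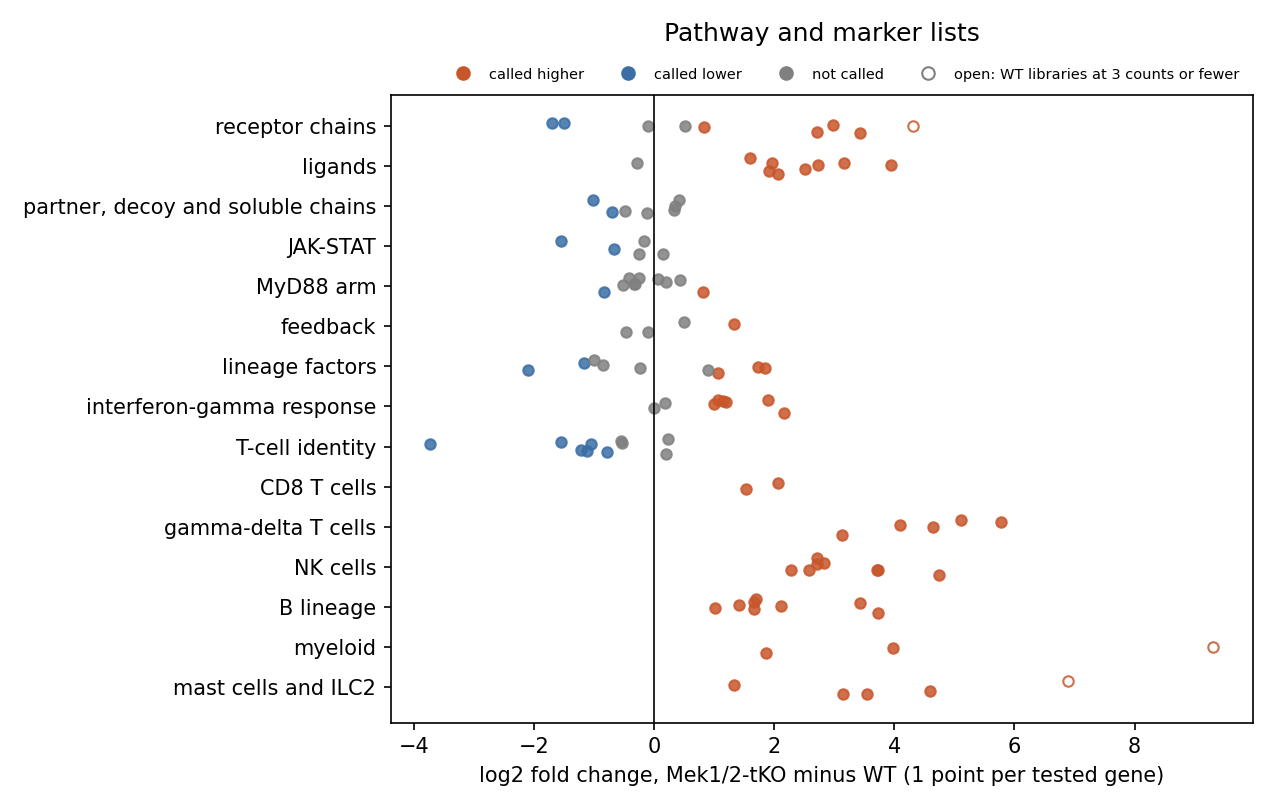
Log2 fold change, Mek1/2-tKO minus WT, of every tested gene of each pathway and marker list, 1 point per gene, coloured by call and open where both WT libraries had 3 counts or fewer. The receptor genes spread to both sides (5 called higher, 2 lower), 8 ligands lie to the right of 0, and all 8 NK and all 8 B-lineage markers lie there too. Of the myeloid and the mast-cell and ILC2 markers 3 each were not tested and are not drawn.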

How the data were processed

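RNA of 2 WT and 2 Mek1/2-tKO libraries was sequenced as read pairs from a stranded mRNA kit. The authors trimmed reads with Trimmomatic 0.36, mapped them to GRCm38 (the mapper is written as STRA in the methods) and deposited the raw count of uniquely mapped reads per gene from featureCounts (Subread 1.5.1). The annotation release and strand setting are not given in the sources used here. Values in CPM were computed here from effective library sizes (TMM).

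Counts of all genes entered 1 edgeR fit (version 4.0.16, R 4.3.3; TMM scaling, filterByExpr, the robust form of the quasi-likelihood test and Benjamini-Hochberg adjustment). Calls needed a fold change of 1.5 or more with an adjusted p under 0.05. Replicates differed by more than sampling noise. Alternatives were DESeq2 1.42.0, DESeq2 size factors, library size alone, a likelihood-ratio test, other filters and fold thresholds, a replicate block and leaving out each library. The Il12rb2 level over unshared exon bases and the counts per Cd4 count were added after seeing the data.

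The receptor genes and lists (ligands; partner, decoy and soluble chains; JAK-STAT; MyD88 arm; feedback; lineage factors; interferon-gamma response; the chromosome 1 cluster; cell markers) were chosen with earlier results of these data known. Named genes were the receptor genes, Map2k1, Map2k2, Il6st, Il1rap, Ifng, Tbx21, Cd4, Cd3e, Cd79a, Trdc, Nkg7 and, in each list, at most 4 called genes by average level, with uncalled ones where fewer than 2 were called. Serbp1, Il1r2, Il1rl2, Ebi3, Il33, Stat4, Gbp2, Igtp, Cd3d, Cd3g, Mcpt4, Il5, Fcgr1 and Ms4a2 were added after their values were seen. So were Il12b, Il18, Il27, Sox13 and Klra8. One gene of the JAK-STAT list is not reported here. Symbols were matched to 54723 of 54752 identifiers. Promoter sequences are RefSeq's (GRCm38.p6); Il12rb1 and Il27ra had no entry. A count of 0 allows 3 counts, at most 0.184 CPM of the library total, and intervals cover counting error only.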

Additional observations from a re-analysis of the deposited data

How the results depend on the processing

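With 2 libraries per genotype, the spread within a genotype rests on 1 difference. Of the receptor genes, 8 kept their direction and their side of the threshold under 11 alternatives each, and Il1r1 under the 10 that tested it. The count of receptor genes called higher was 4 to 6 and that called lower was 2 under all 13 alternatives. Over all genes, a fold change of at least 2 left 1725 genes called higher and 1040 lower, and no fold threshold gave 3903 called lower. Scaling by library size alone gave 2388 higher and 2848 lower and moved the median log2 fold change by -0.08. Leaving out a library gave 2338 to 2791 genes called higher and 2119 to 2627 lower, where the lone library is assumed to vary like the other genotype. With the replicate number as a replicate block, 2652 genes were called higher and 2300 lower, and no receptor gene changed its call. Libraries with the same number did not deviate together (correlation -0.0262 over 14330 genes), so the numbers were not taken to pair them. Among the list counts, 369 of 390 recomputed values stayed within 1.5 times the reported one. With at least 10 counts in every library, 5 ligands, 7 NK, 3 gamma-delta, 1 myeloid and 1 mast-cell or ILC2 marker were still called higher. That filter left 12733 genes tested, of which 2363 were called higher. The genes of these lists that lost their call were untested under it. The low counts of Il23r and Il1r1 limit what can be said of them.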
